A study of Mus musculus with 72 samples.

Results

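Genes of the thyroid hormone axis that the hypothalamus expresses were followed through RNA sequencing counts of mouse hypothalamus. They are Trh, Trhde, Slco1c1, Dio2, Thra, Thrb and Hr, a list of 7 named genes among the 21749 genes that all 10 deposited count tables share. The genes are listed by name, with no threshold on measured values, and each gene had a row in all 10 tables. The study removed 1 of 5 conserved noncoding elements, called E1 to E5, from the genome of adult B6 mice, elements that the study ties to hibernation. Each element has its own line, with knockout (KO) mice and wild types (WT), sampled either fed or after 72 h without food but with water. The 72 libraries form 20 groups, 12 groups of 4 and 8 of 3. The groups of 3 are the 4 E3 groups, fasted E2 wild types and knockouts, fasted E4 knockouts and fasted E1 wild types. All groups are whole hypothalamus, and the labels give no age beyond adult. No label says whether the replicates came from separate mice, so the p-values measure the spread between these samples.

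The hypothalamus sets the level of thyroid hormone through thyrotropin-releasing hormone, a small peptide cut from the precursor that Trh encodes and released towards the pituitary by neurons of the paraventricular nucleus. Trhde encodes the enzyme that breaks the peptide down outside cells. Thyroxine enters the brain through carriers such as OATP1C1 (Slco1c1, in capillary endothelium and in tanycytes and astrocytes) and is turned into the active hormone T3 by the type 2 deiodinase (Dio2, in tanycytes and astrocytes). T3 acts through the nuclear receptors TRα (Thra) and TRβ (Thrb), and Hr encodes Hairless, a corepressor of these receptors whose own gene is a known T3 target in brain. Food deprivation is known to lower Trh in the paraventricular nucleus and to raise Dio2 in tanycytes of rodents, and Trh is also expressed in other hypothalamic neurons that whole tissue includes.

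The genes lie on 5 chromosomes of mm10: Trh at chr6:92242061-92244650 (minus strand), Slco1c1 at chr6:141524368-141570177 (plus), Trhde at chr10:114398823-114802307 (minus), Thra at chr11:98740638-98769006 (plus), Dio2 at chr12:90724552-90738438 (minus), Thrb at chr14:17660261-18038090 (plus) and Hr at chr14:70552212-70573548 (plus). All 7 are protein coding, and the counts are of reads on their exons as the authors assigned them. 3 of them share exon sequence with a gene on the other strand. Thra shares 263 bases, 5.7% of its exon length, with Nr1d1, Trhde shares 538 bases (6.7%) with the predicted gene Gm15723, and Dio2 shares 100 bases (1.7%) with Gm26512. No source gives the strand of the reads, so reads of these stretches cannot be told apart.

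The starts of the hormone gene and of the deiodinase gene, chosen because they encode the hormone precursor and the enzyme that makes T3, were searched for the letters of 2 transcription factor motifs. Thyroid hormone receptors bind half-sites with the letters AGGTCA, and the transcription factor CREB binds the cyclic AMP response element TGACGTCA. The sequences below are the 250 bases before each start in RefSeq (GRCm38.p6), read 5′ to 3′ on the gene's own strand. The half-site in Trh, which reads TGACCT because it lies on the other strand, and the response element in Dio2 are in capitals.
Trh, chr6:92244651-92244900, minus strand: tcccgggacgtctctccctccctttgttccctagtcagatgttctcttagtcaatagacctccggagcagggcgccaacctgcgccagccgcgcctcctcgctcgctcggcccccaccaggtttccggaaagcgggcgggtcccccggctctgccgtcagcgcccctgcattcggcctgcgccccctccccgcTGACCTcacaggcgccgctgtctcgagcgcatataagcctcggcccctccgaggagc
Dio2, chr12:90739039-90739288, minus strand: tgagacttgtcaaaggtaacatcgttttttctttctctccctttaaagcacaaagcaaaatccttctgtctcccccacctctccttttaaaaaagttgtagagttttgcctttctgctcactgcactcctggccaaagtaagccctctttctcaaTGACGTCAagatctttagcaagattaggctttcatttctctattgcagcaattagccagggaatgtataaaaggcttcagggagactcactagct
The half-site in Trh begins 57 bases before the RefSeq start and the response element in Dio2 begins 95 bases before the RefSeq start. For Dio2 the RefSeq start lies upstream of the start in the position given above (chr12:90738438, minus strand). The element is farther from that listed start. Both strands were searched in windows of the same length before 32851 starts of all genes, where 14% held AGGTCA and 1.55% held TGACGTCA. Of the other members with a RefSeq entry, Thrb held 1 AGGTCA, 184 bases before 1 of its 2 starts, and the windows of Slco1c1, Trhde and the other start of Thrb held neither motif. Hr and Thra were not searched. A match says only that the letters are there.

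Depth was 5517552 to 39999368 counts per library. Levels are given as scaled CPM, CPM over the shared genes after TMM scaling over all 72 libraries. By the batch number of each library, fed and fasted libraries shared a batch only in E1 and in E3. In E2, E4 and E5 the batch changed with the feeding state, so that feeding and batch cannot be told apart there, while fasted E5 and fed E2 libraries were in the same batch. In E3 alone, all 12 libraries held transcripts of the Y-linked gene Ddx3y (77.4 to 153 scaled CPM, at most 0.317 in the other lines), so line, sex and batch cannot be told apart in that line either. The 7 hypothalamus markers were above 0 in every library. Their sum was 105.7 to 189.4 scaled CPM in fasted and 191.9 to 235.1 in fed E1 libraries, and the states overlapped in the other lines. It includes Agrp and Pomc, which fell in E1 (log2 -0.65 and -1.43). Summed thalamus markers ran from 103.2 to 810.3 in fasted and 129.9 to 479.0 in fed E1 libraries. Cortex markers ran from 38.43 to 350.4 and from 15.65 to 43.54. A total of 18 libraries held raised transcripts of a neighbouring tissue (pituitary, choroid plexus, thalamus, cortex) or had over 20% of counts in 10 genes, and fasted libraries of E2, E4 and E5 held the most pituitary RNA (up to 11890, 6571 and 19580 scaled CPM summed over 8 markers, against 51.4 or less in fed libraries of those lines, with Tshb at 0 in every library). Results were also computed without these 18 libraries. The tissue rule asked for over 3 times the median of a library's line and feeding state, which was 666.5 for pituitary in fasted E2. Fasted E2 wild type 1 was therefore kept, with pituitary markers at 1305 scaled CPM against 1.38 to 28.4 in fasted E2 knockouts. In fasted E2 the runs without other tissues are thus not free of pituitary RNA, and pituitary RNA cannot be told apart from genotype there.

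Per kb of exon, the receptor gene Thra had the highest level of the 7 and the deiodinase gene Dio2 the lowest median. Over the 72 libraries the median level per kb was 61.6 scaled CPM for Thra, 29.5 for Trh, 22.1 for Thrb, 9.36 for Trhde, 7.56 for Hr, 4.09 for Slco1c1 and 2.32 for Dio2. The counts behind these levels ran from 1210 to 14084 reads for Thra and from 32 to 1305 reads for Dio2. Line means of fed wild types spanned 45.2 to 66.1 scaled CPM per kb for Thra and 1.55 to 4.78 for Dio2, so the lowest Thra mean lay above the highest Dio2 mean. For Trh they spanned 15.8 to 30.6 and for Thrb 21.5 to 29.8, ranges that overlap.

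**Figure D1:**
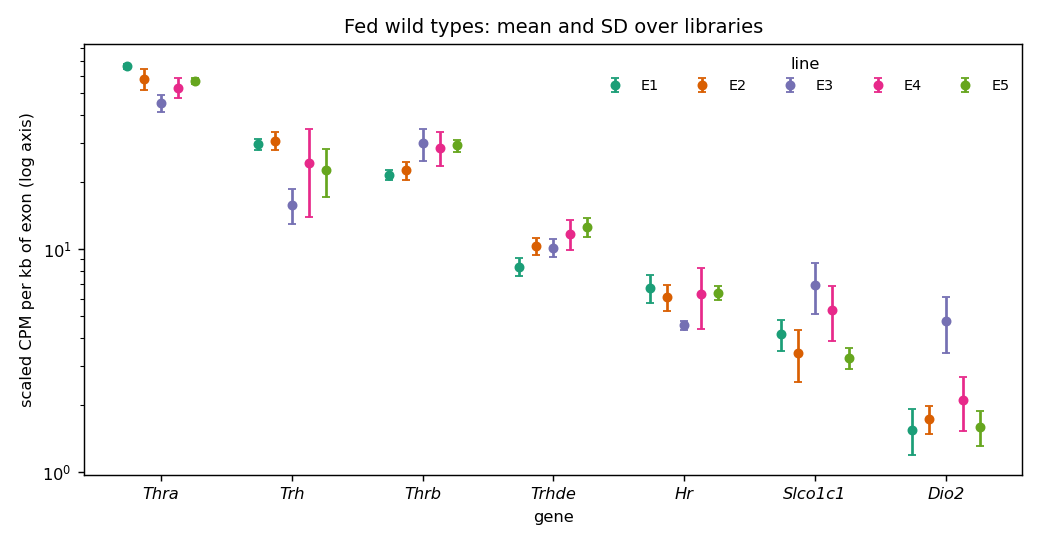
Mean level in fed wild types of the 5 lines, in scaled CPM per kb of exon on a log axis, with bars of 1 SD over the 3 or 4 libraries of each group. Thra stands highest in each line and Dio2 lowest in E1, E2, E4 and E5; in E3 the mean of Dio2 (4.78) is above that of Hr (4.56).

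Across the 20 groups the mean of each gene changed by 2.02-fold (Thra) to 6.76-fold (Dio2) from the lowest to the highest group. Neighbours in that order were close: for Slco1c1 and Thrb all 19 neighbouring pairs differed by no more than the larger of their SDs, and for each of the other 5 genes 18 of 19 did. Trh was lowest in fed E3 wild types, at 21.9 ± 3.88 scaled CPM (SD, n = 3), and highest in fasted E5 wild types, at 86.7 ± 10.8 (SD, n = 4). Thra ran from 208.5 ± 17.7 (SD, n = 3) in fed E3 wild types to 420.4 ± 18.1 (SD, n = 4) in fasted E4 wild types. Hr ran from 30.1 ± 5.54 (SD, n = 3) in fasted E3 wild types to 109.4 ± 46.7 (SD, n = 3) in fasted E2 wild types. Thrb was lowest in fasted E4 wild types, at 115 ± 12.1 (SD, n = 4), and highest in fasted E3 wild types, at 237.5 ± 26.5 (SD, n = 3). Dio2 stood apart in E3: its fed libraries held 20.9 to 36.4 scaled CPM, and no fed library of the other 4 lines was above 16.3. That step coincides with Ddx3y and with the batch of E3, and no test was made across lines. Tissue markers differed too. Summed genes of the paraventricular nucleus were at 79.5 to 119.7 scaled CPM in fed E3, and at 126.1 or more in fed libraries of the other lines. Hypothalamus markers were at 87.67 to 147.1 in fed E3 and 191.9 to 235.1 in fed E1, but overlapped with fed E2 and E4. Thalamus markers were at 212.0 to 982.9 in fed E3 and 125.1 to 201.7 in fed E5, but overlapped with fed E1, E2 and E4. Cortex markers were at 42.28 to 171.8 in fed E3 and at 43.54 or less in fed libraries of the other lines. Astrocyte markers were at 1604 to 1935 in fed E3 and 932.7 to 1729 in fed libraries of the other lines. Tanycyte markers were at 83.08 to 109.5 in fed E3 and 82.96 to 420.5 in the others.

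**Figure D2:**
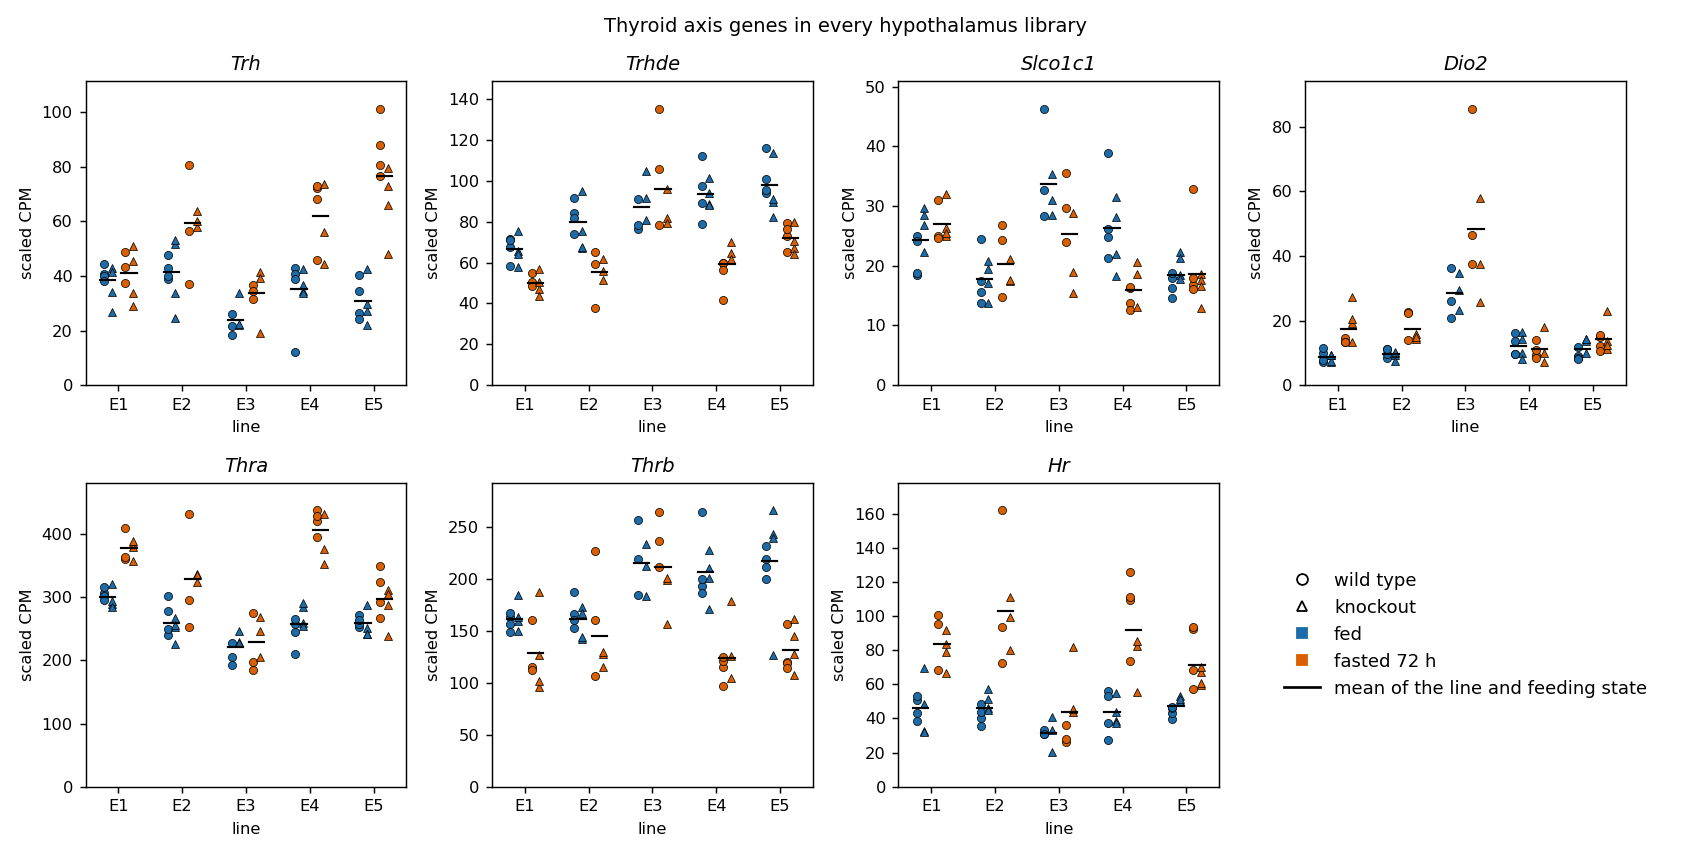
Scaled CPM of each gene in each library by line (horizontal axis), with fed libraries in blue and fasted libraries in orange, circles for wild types, triangles for knockouts and a bar at the mean of the line and feeding state. Orange points sit above blue ones for Hr in E2 and E5 and for Dio2 in E1 and E2, and below them for Trhde in E1, E2, E4 and E5.

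The question of the fasted libraries is how the axis responds to 72 h without food, and within lines fasted and fed libraries differed for many of these genes. In E2, E4 and E5 such a difference cannot be told apart from batch. Of the lines with a shared batch, E1 had Hr, Thra and Dio2 called higher and Trhde and Thrb lower, and E3 had none called. Tissue markers also differed between fed and fasted E1 libraries, and their part in these calls was not tested. With genotype as a covariate, the corepressor gene Hr and the receptor gene Thra rose in 4 of 5 lines, Dio2 rose in 3 and Trh in 2, while Trhde fell in 4, Thrb in 3 and Slco1c1 in 1. Of the 7 genes, E1 had 5 called, E2 4, E3 0, E4 6 and E5 6, by edgeR's quasi-likelihood test with an adjusted p under 0.05 over all genes tested. These counts stand beside broad changes of the whole tables: the share of all genes called was 40% (E1), 18.9% (E2), 11.5% (E3), 48.5% (E4) and 62.9% (E5). In E3, where none of the 7 was called, 3 of them had an unadjusted p under 0.05, beside 29.4% of all genes, and DESeq2 called 2, beside 2516 of 14860 genes. The median log2 change of the 7 genes was 0.15 (E1), 0.35 (E2), 0.13 (E3), -0.10 (E4) and 0.22 (E5), against -0.01 to 0.01 over all genes. Whether fewer cells of a type or less RNA per cell gives a lower count cannot be told apart in tissue of this kind.

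**Figure D3:**
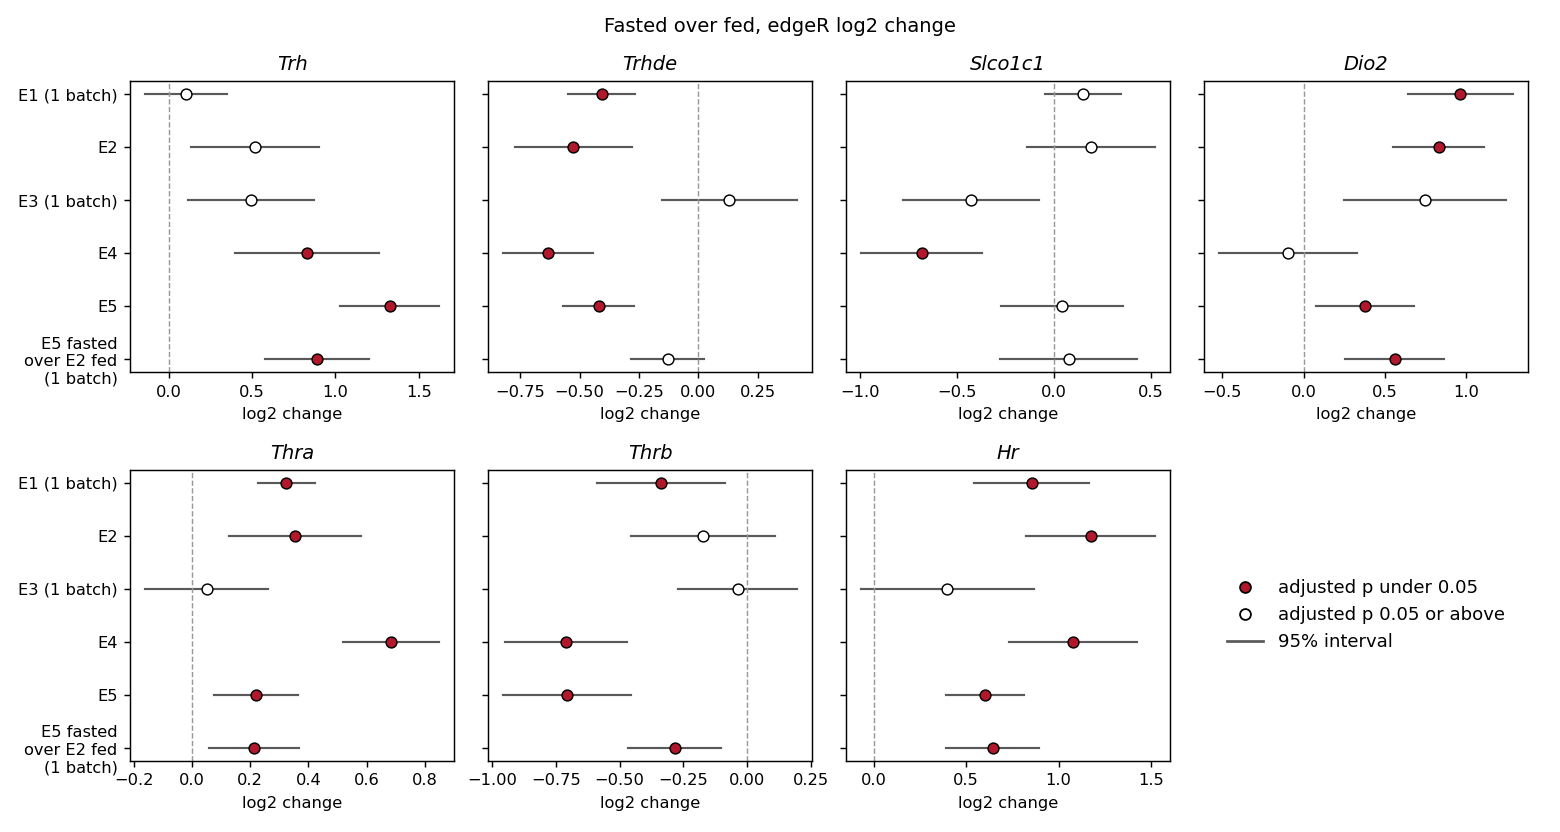
Log2 change of each gene, fasted over fed, from edgeR within each line (rows, genotype as a covariate) and for fasted E5 over fed E2 libraries, with 95% intervals; filled points have an adjusted p under 0.05. Hr and Thra lie to the right of 0 in every row, and Trhde to the left in every row but that of E3.

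Trh, the hormone precursor, was higher on average in fasted libraries of every line, but the size of the difference varied widely. Trh was called in E4 and E5 only, lines where the batch changed with the feeding state. In E5 the 8 fed libraries ran from 21.9 to 42.5 scaled CPM with a median of 28.4, and the 8 fasted libraries from 48.0 to 101 with a median of 78.2. No fasted library of E5 overlapped with a fed one, and the mean was 2.49-fold higher (log2 1.33 ± 0.14 SE, adjusted p 5.98e-07). In E4 the 8 fed libraries ran from 12.1 to 42.8 (median 37.7) and the 7 fasted libraries from 44.4 to 73.7 (median 68.0), again without overlap. The log2 change in E4 was 0.83 ± 0.20 (adjusted p 0.00307). In E1, 1 of the lines with a shared batch, fed libraries ran from 26.8 to 44.2 (median 40.5) and fasted libraries from 29.0 to 51.1 (median 43.5). These ranges lay over each other, and the log2 change was 0.10, with a 95% interval from -0.14 to 0.35. In E3 the change was 0.50 (interval 0.12 to 0.87, adjusted p 0.0798) and in E2 it was 0.52 (0.14 to 0.90, adjusted p 0.0562). Among wild types of E3 alone, the fasted libraries held 31.7, 34.4 and 36.5 and the fed libraries 18.2, 21.5 and 25.9. These do not overlap, and the log2 change of 0.66 passed the test (adjusted p 0.0137). Among knockouts of E3 alone the fasted libraries held 19.2, 39.4 and 41.5 and the fed libraries 22.0, 22.2 and 33.9, an overlap, with a change of 0.36 (adjusted p 0.627). The summed level of 5 genes of the paraventricular nucleus (Sim1, Otp, Crh, Avp, Oxt) moved partly with Trh, from 126 to 530 scaled CPM in fed E4 libraries to 259 to 673 in fasted ones and from 235 to 367 to 264 to 558 in E5. In E1 it was 196 to 346 in fed and 136 to 251 in fasted libraries. It was 175 to 441 and 234 to 818 in E2, and 79.5 to 120 and 92.7 to 214 in E3. Its part in the result was not tested. Without the libraries that held other tissues the change of Trh was 0.92 in E4 and 1.43 in E5.

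Trhde, which encodes the ectoenzyme that inactivates the hormone outside cells, was lower in fasted libraries of E1, E2, E4 and E5. In E1 the 8 fed libraries ran from 57.8 to 75.6 scaled CPM with a median of 66.7, and the 7 fasted libraries from 43.5 to 57.0 with a median of 50.3. In E4 the fed libraries ran from 78.9 to 112 (median 91.6) and the fasted libraries from 41.9 to 70.2 (median 59.9). The fasted and fed libraries were apart in all 4 lines, and the means were lower by 24.5% in E1, 30.7% in E2, 36.8% in E4 and 26.4% in E5. The log2 change was -0.41 ± 0.07 in E1 (SE, adjusted p 0.000208), -0.53 ± 0.12 in E2, -0.63 ± 0.09 in E4 and -0.42 ± 0.07 in E5. Within E2 neither genotype alone kept the call (adjusted p 0.0616 in wild types and 0.13 in knockouts). In E3 the levels lay over each other, at 76.4 to 105 in fed and 78.3 to 135 in fasted libraries, and the change was 0.13 (interval -0.15 to 0.42). The difference between E1 and E3, tested as an interaction of line and feeding over 27 libraries, was 0.54 ± 0.15 on the log2 scale (adjusted p 0.016, where 17% of genes were called). Without the libraries with other tissues it was 0.43 (adjusted p 0.0663). Ddx3y, batch and tissue markers also differed between E1 and E3. Their part in this and other interactions of line and feeding was not tested.

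Slco1c1, the thyroxine carrier, fell in E4 and was not called elsewhere. The 8 fed E4 libraries ran from 18.3 to 38.9 scaled CPM (median 25.5) and the 7 fasted libraries from 12.6 to 20.6 (median 16.3), and the ranges overlapped. The log2 change was -0.68 ± 0.15 (SE, adjusted p 0.0012). With each library's trend of counts on base composition taken out it was -0.37 (adjusted p 0.0524), and among the E4 knockouts alone it was -0.45 (adjusted p 0.108). In E3 the change was -0.43 (interval -0.78 to -0.08), from 28.4 to 46.3 in fed libraries to 15.5 to 35.5 in fasted libraries. The same correction made it -0.51 in E3, which passed the test (adjusted p 0.0352). In E1 the fed libraries held 18.5 to 29.8 and the fasted libraries 24.6 to 32.1, a change of 0.15 (interval -0.05 to 0.35). The interaction of line and feeding for E3 against E1 was -0.58 ± 0.19 (adjusted p 0.0355), and leaving out any 1 of 9 of the 27 libraries took it past 0.05 (E1 fasted KO 4, fasted WT 3, fed KO 3 or fed WT 1, or E3 fasted KO 1, fasted WT 3, fed KO 1, fed KO 3 or fed WT 3), with an adjusted p of up to 0.0807. The summed level of 9 endothelial markers moved with Slco1c1 in E4, from 102 to 216.4 scaled CPM in fed to 81.2 to 131 in fasted libraries, and in E3, from 110.4 to 212 to 77.9 to 129. In E1 it was 102 to 190 in fed and 110.2 to 176 in fasted libraries. In E5 it was 86.6 to 151.5 in fed and 69.3 to 92.4 in fasted libraries, while the change of Slco1c1 was 0.04 (adjusted p 0.817). Its part in the result was not tested.

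Dio2, which encodes the enzyme that makes T3 in the brain, rose in E1, E2 and E5. In E1 the 8 fed libraries ran from 7.01 to 11.6 scaled CPM with a median of 8.48, and the 7 fasted libraries from 13.3 to 27.3 with a median of 14.7. All fasted E1 libraries were above all fed ones, the mean was 2.002-fold higher, and the log2 change was 0.97 ± 0.15 (SE, adjusted p 0.000157). In E2 the fed libraries ran from 7.51 to 11.3 (median 9.77) and the fasted libraries from 14.0 to 22.7 (median 15.3), without overlap. The change in E2 was 0.83 ± 0.13 (adjusted p 0.00107). The call was lost among E1 wild types alone (0.62, adjusted p 0.06) and among E2 knockouts alone (0.69, adjusted p 0.0668). In E3 the fed libraries ran from 20.9 to 36.4 (median 27.7) and the fasted libraries from 25.7 to 85.6 (median 42.1), with a change of 0.75 (interval 0.25 to 1.25) that missed the threshold (adjusted p 0.0521). In E5 the change was 0.38 ± 0.14 (adjusted p 0.0272). It was 0.21 (adjusted p 0.212) without the libraries with other tissues, and leaving out any 1 of 4 libraries, E5 fasted KO 3, fed KO 1, fed WT 3 or fed WT 4, also took it past 0.05. Among the E5 knockouts alone it was 0.22 (adjusted p 0.423). In E4 fed libraries held 8.20 to 16.3 and fasted libraries 7.16 to 18.0, an overlap, and the change was -0.10 (interval -0.52 to 0.33). The highest fasted value of Dio2 in each line came from a library with raised cortex or pituitary transcripts. With cortex transcripts these were E1 KO 4 (27.3) and E3 WT 2 (85.6). With pituitary transcripts they were E2 WT 2 (22.7), E4 KO 3 (18.0) and E5 KO 3 (22.95). The 8 tanycyte markers, summed, overlapped between the states in every line, in E3 only at the edge. They ran from 110.7 to 137 scaled CPM in fed and 84.8 to 168 in fasted E1 libraries, from 83.0 to 421 and 112 to 200.2 in E2, and from 83.1 to 109.5 and 109.3 to 201 in E3. The range of 7 summed astrocyte markers lay higher in fasted than in fed libraries of each line, with overlap. It was 1587 to 2149 scaled CPM in fasted against 1371 to 1729 in fed libraries of E1. In E2 it was 1348 to 1909 against 1149 to 1608, and in E5 1505 to 2438 against 1087 to 1679. Where Dio2 was not called, it was 1926 to 2448 against 1604 to 1935 in E3. In E4, also without a call, it was 1485 to 2161 against 933 to 1667. The part of these cells in the result was not tested.

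The 2 receptor genes were called in opposite directions in E1, E4 and E5, Thra higher and Thrb lower, and in E3 neither was called. Thra rose in E1, where the 8 fed libraries ran from 284 to 322 scaled CPM (median 299) and the 7 fasted libraries from 357 to 409 (median 380.2). No fasted library overlapped with a fed one, and the log2 change was 0.32 ± 0.05 (SE, adjusted p 6.78e-05). In E4 the fed libraries ran from 211 to 291 (median 258) and the fasted libraries from 352 to 438 (median 420.3), a change of 0.68 ± 0.08. That change was 0.31 once the trend on base composition was taken out, still past the threshold. In E2 and E5 the changes were 0.35 ± 0.11 and 0.22 ± 0.07, and the same correction left 0.19 (adjusted p 0.0654) and 0.14 (adjusted p 0.0615). Among the E5 knockouts alone the change was 0.18 (adjusted p 0.227). The call in E2 was also lost within either genotype alone (0.32 and 0.41, adjusted p 0.354 in wild types and 0.0631 in knockouts) and when any 1 of 8 libraries was left out, fasted KO 1, 2 or 3, fasted WT 3, fed KO 2 or 4, or fed WT 1 or 2. In E3 the ranges were 193 to 246 in fed and 184 to 275 in fasted libraries, and the change was 0.05 (interval -0.16 to 0.26). Nr1d1, the clock repressor gene that shares exon sequence with Thra, changed by 0.40 ± 0.07 in E1, 0.73 ± 0.09 in E4 and 0.38 ± 0.07 in E5, all called. In E2 it was at 0.37 (adjusted p 0.162) and in E3 at -0.23 (interval -0.42 to -0.05, adjusted p 0.0877). How much of the counts of Thra comes from it was not tested.

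Thrb fell in E1, E4 and E5. The summed level of 7 striatal markers was also lower in fasted libraries of these lines, at 357 to 673 scaled CPM against 528 to 770.4 in fed libraries of E1, 387.5 to 771 against 577 to 1637 in E4, and 353 to 488.5 against 454 to 1124 in E5. Where Thrb was not called, it was 455 to 1056 in fasted against 563 to 1314 in fed libraries of E3, and 354 to 1253 against 330 to 667.5 in E2. The part of this sum in the result was not tested. In E5 the 8 fed libraries ran from 127 to 266 scaled CPM with a median of 226, and the 8 fasted libraries from 108 to 162 with a median of 124. Only 1 fed library, a knockout, lay in the range of the fasted ones, and the log2 change was -0.71 ± 0.12 (SE, adjusted p 5.92e-05). In E4 the fed libraries ran from 171.5 to 265 (median 200.5) and the fasted libraries from 97.6 to 179 (median 121), with a change of -0.71 ± 0.11. In E1 the change was -0.34 ± 0.12 (adjusted p 0.0313, and 0.183 and 0.121 in wild types and knockouts alone), from 149 to 185 in fed to 95.9 to 187 in fasted libraries. Leaving out any 1 of 6 E1 libraries took it past 0.05 (fasted KO 1, 2 or 3, fasted WT 1 or 2, or fed KO 4). Leaving out the libraries with other tissues made it -0.55 (adjusted p 6.44e-06). In E2 the change was -0.17 (interval -0.46 to 0.11) and in E3 it was -0.04 (interval -0.27 to 0.20).

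Hr, the corepressor gene, had the largest change of the 7 in E2 and E4. In E2 the 8 fed libraries ran from 35.8 to 57.3 scaled CPM with a median of 45.4, and the 6 fasted libraries from 72.6 to 162 with a median of 96.5. The fasted and fed libraries did not overlap, the mean was 2.24-fold higher, and the log2 change was 1.17 ± 0.16 (SE, adjusted p 0.000579). In E4 the fed libraries ran from 27.6 to 56.0 (median 40.9) and the fasted libraries from 55.4 to 126 (median 85.4), a change of 1.08 ± 0.16, which was 0.60 with the trend on base composition taken out. In E1 the change was 0.85 ± 0.15, from 32.2 to 69.8 (median 45.9) in fed to 66.8 to 101 (median 83.5) in fasted libraries. In E5 it was 0.60 ± 0.10, with 39.8 to 53.3 in fed and 57.2 to 93.5 in fasted libraries, without overlap. It was 0.35 among the E5 knockouts alone, still called (adjusted p 0.00767). In E3 the change over both genotypes was 0.40 (interval -0.07 to 0.87), and the genotypes there differed in a way described further on.

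Where feeding states shared a batch, wild types and knockouts of E1 and E3 were also tested apart, with line as a covariate. Among wild types, 1 of the 7 genes was called, where 11% of all genes were: Dio2 rose by 0.82 ± 0.19 (SE, adjusted p 0.0159). The 4 fed E1 wild types held 7.01, 7.66, 9.90 and 11.6 scaled CPM and the 3 fasted ones 13.5, 13.5 and 14.7, and the 3 fed E3 wild types held 20.9, 26.0 and 36.4 and the fasted ones 37.4, 46.6 and 85.6. All fasted wild types of a line were thus above all its fed ones. Without the libraries with other tissues the change was 0.58 (adjusted p 0.0683). Among E3 wild types alone it was 1.04 (adjusted p 0.0383). Among knockouts, 3 of 7 genes were called, where 20.1% of all genes were: Dio2 rose by 0.88 ± 0.20, Hr rose by 0.82 ± 0.20 and Trhde fell by 0.30 on the log2 scale (adjusted p 0.0257). The call of Trhde was lost when any 1 of 7 libraries was left out (E1 fasted KO 2, 3 or 4, E1 fed KO 1, 2 or 3, or E3 fed KO 2). In E3 knockouts alone none of the 3 was called (0.49 for Dio2, 0.87 for Hr and -0.10 for Trhde, adjusted p 0.488, 0.256 and 0.766). Wild types and knockouts are compared directly in the tests of genotype by feeding below.

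Fasted E5 and fed E2 libraries were in the same batch but come from different lines. Trh was higher in the fasted libraries by 0.89 ± 0.15 on the log2 scale (SE, adjusted p 0.00087), Hr by 0.64 ± 0.12, Dio2 by 0.56 ± 0.14 and Thra by 0.21 ± 0.07, and Thrb was lower, at -0.28 ± 0.09. These 5 of 7 genes stood beside 31% of all genes called. The 8 fed E2 libraries held 24.7 to 53.1 scaled CPM of Trh (median 41.5) and the 8 fasted E5 libraries 48.0 to 101 (median 78.2), with a small overlap. Trhde was at -0.13 (interval -0.28 to 0.02), and Slco1c1 at 0.08 (interval -0.28 to 0.43). For Thra the call was lost without the libraries with other tissues (0.20, adjusted p 0.067) and when any 1 of 9 of the 16 libraries was left out (E2 fed KO 2, fed WT 1, 2 or 4, or E5 fasted KO 1, 2 or 4, or fasted WT 3 or 4). Line and feeding cannot be told apart in this comparison.

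The other genes of the pathway were taken from a list of 42 genes that includes the 7, of which 36 to 38 passed the filter on low counts. Over the list, 18 of 37 genes were called in E1 (9 higher, 9 lower), 9 of 37 in E2 (7 higher, 2 lower), 6 of 36 in E3 (3 and 3), 25 of 37 in E4 (13 and 12) and 29 of 37 in E5 (17 and 12). From E1 to E5 these are 48.6%, 24.3%, 16.7%, 67.6% and 78.4% of the list genes tested, beside 40%, 18.9%, 11.5%, 48.5% and 62.9% of all genes, and the lines stand in the same order by both. Its median log2 change lay between -0.09 and 0.14 in the 5 lines. Among the other carriers, Slco1a4 (OATP1A4, of brain capillaries) rose by 0.37 ± 0.08 in E1, fell by 0.68 on the log2 scale in E3 and by 0.77 in E4. Its interaction of line and feeding was -1.05 ± 0.15 for E3 against E1 (SE, adjusted p 6.76e-05). The T3 carrier MCT10 (Slc16a10) fell by 0.38 in E1, by 0.34 in E4 and by 0.82 in E5.

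Among partners of the receptors, the retinoid X receptor gene Rxrb rose in E1 (0.32 ± 0.07), E4 (0.62 ± 0.10) and E5 (0.29 ± 0.07). The coactivator gene Ncoa3 fell by 0.22 in E1, by 0.38 in E3 and by 0.27 in E5. Tshr, the receptor of thyrotropin, fell by 0.49 in E1, by 0.71 in E4 and by 0.49 in E5. Of the genes that process peptide precursors, Cpe (carboxypeptidase E) rose in E1, E3, E4 and E5, by 0.43, 0.28, 0.27 and 0.37. Pcsk1, a convertase that cuts the Trh precursor, rose in E3 by 0.37 ± 0.10 and fell in E4 by 0.48 on the log2 scale. Klf9, a T3 target in brain that glucocorticoids also raise, rose by 0.44 ± 0.06 in E1 and 0.35 ± 0.09 in E3 and was not called in the other lines. Of the other 5 responsive genes in the list (Nrgn, Rasd2, Camk4, Thrsp, Dbp), E2 had 0 called, E1 and E3 1 each, E4 3 and E5 5, with the most in the lines where most genes of the whole table were called (48.5% in E4 and 62.9% in E5). Dbp, a clock output gene, was lower in E3 (-0.60 ± 0.15) and higher in E4 and E5 (0.38 ± 0.10 and 0.50 ± 0.14). Ttr and Cga, leading transcripts of choroid plexus and of pituitary, are not described further. Cga was called in E2 and E5, whose fasted libraries held pituitary RNA. Ttr was called in E2, E4 and E5, and of these only E5 had a fasted library with raised choroid plexus transcripts.

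**Figure D4:**
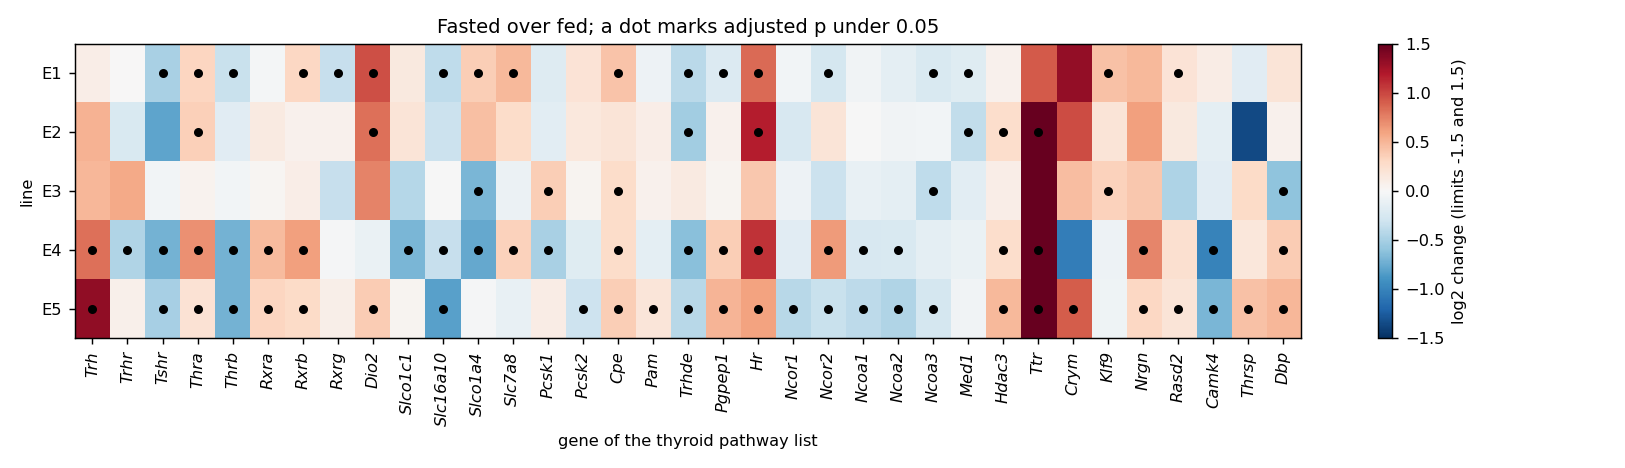
Log2 change, fasted over fed, of 35 of the 36 genes of the thyroid pathway list that were tested in every line (columns), by line (rows), with colours limited at -1.5 and 1.5 and a dot where the edgeR adjusted p is under 0.05. Hr is red in all 5 rows, and Slco1a4 is red in E1 and blue in E3 and E4.

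Whether an element changes the axis was asked by comparing knockouts with wild types within each line and feeding state. None of the 7 genes was called in any of the 10 comparisons by edgeR, where 0% of all genes were called in each (0 of 14590 to 0 of 20243 genes). At an unadjusted p under 0.05, 9 of the 70 pairs of a gene and a comparison passed (12.9%), beside 2.82% to 17.5% of all genes over the 10 comparisons. DESeq2 called 1 pair, Hr in fasted E3 libraries, where it called 527 of 14590 genes. The largest change of the 70 was that pair, and the others lay between -0.49 and 0.52 on the log2 scale. The 3 fasted E3 wild types held 26.0, 27.9 and 36.4 scaled CPM of Hr and the 3 fasted knockouts 43.6, 45.9 and 82.1. All knockouts were above all wild types, and the change was 0.93 ± 0.25 (SE, interval 0.37 to 1.48, edgeR adjusted p 0.173, DESeq2 adjusted p 0.0111). It was 0.57 without fasted KO 3 and 0.59 with the trend on base composition taken out. In fed E3 libraries the wild types held 30.6, 30.8 and 33.3 and the knockouts 20.4, 33.2 and 41.0, with a change of -0.02 (interval -0.50 to 0.45). Fasted E4 knockouts went the other way for Hr, at -0.48 (interval -0.87 to -0.10), from 73.4 to 126 in 4 wild types to 55.4, 82.4 and 85.4 in 3 knockouts. The 55.4 was KO 1, with 178 reads of Hr, the lowest depth of all libraries (5517552 counts) and 33.36% of counts in 10 genes. The 85.4 was KO 3, with pituitary markers at 6571 scaled CPM. Fasted E4 wild types 2 and 4 were also among the libraries with other tissues.

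**Figure D5:**
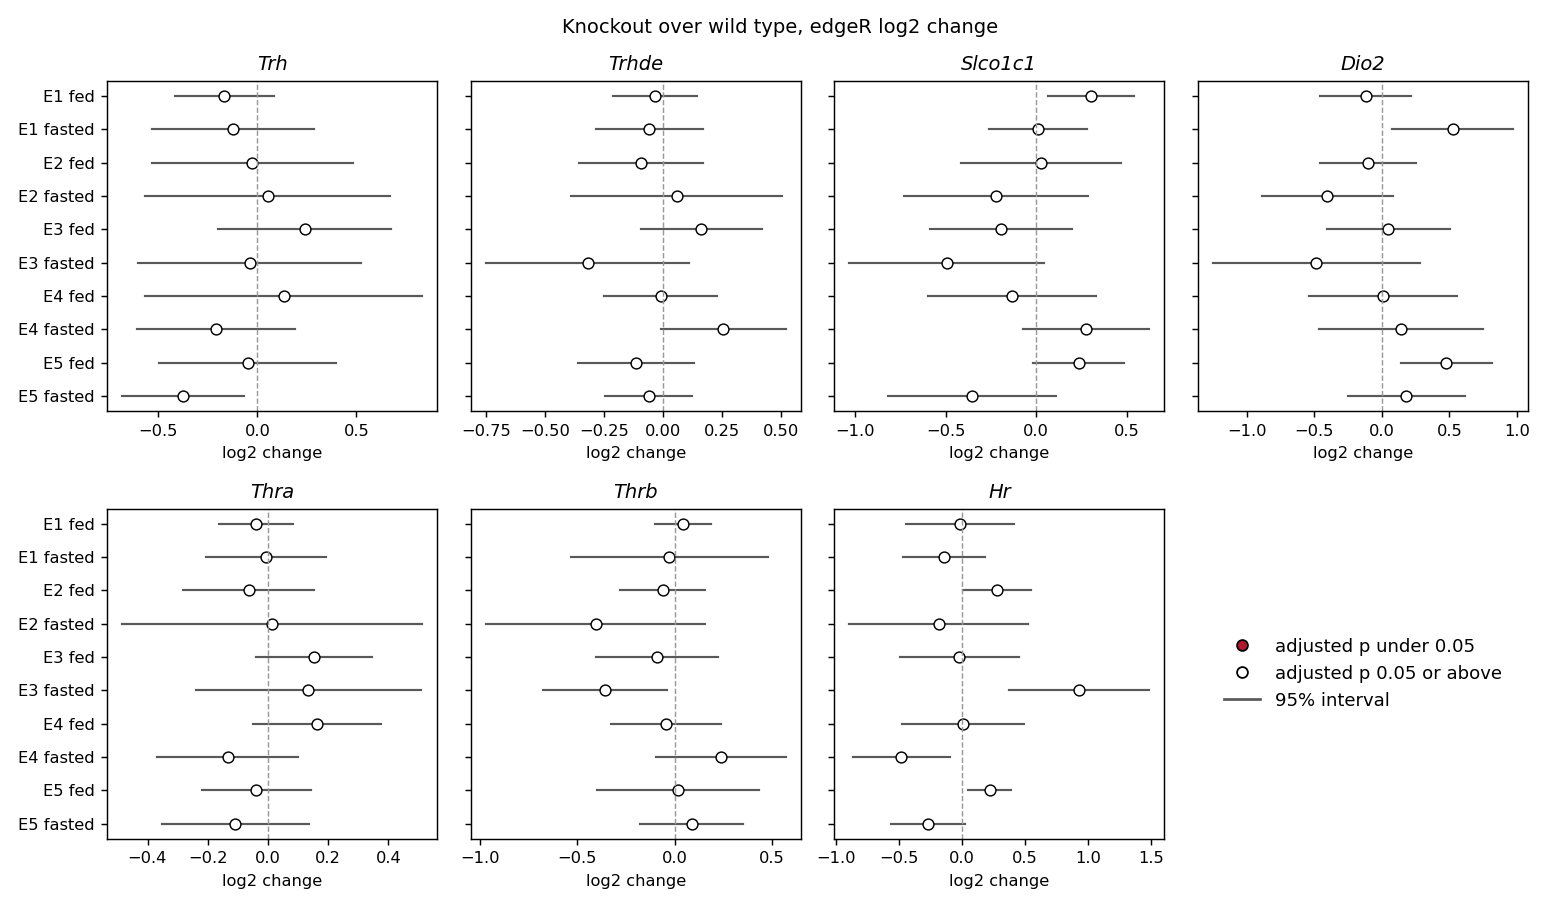
Log2 change of each gene, knockout over wild type, in the 10 comparisons by line and feeding state (rows), from edgeR with 95% intervals; open points have an adjusted p of 0.05 or above. No point is filled, and the point farthest from 0 is Hr in fasted E3 libraries, at 0.93.

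For the other genes the intervals give the size of change that these data leave possible. Thra had the narrowest spread, with changes from -0.13 to 0.16 over the 10 comparisons and intervals that reach no further than -0.48 and 0.51. The changes of Trhde ran from -0.32 to 0.26, of Trh from -0.38 to 0.24, of Thrb from -0.40 to 0.24 and of Slco1c1 from -0.49 to 0.30. Their intervals were wider, reaching -0.75 and 0.52 for Trhde and -0.68 and 0.83 for Trh. They reached -0.97 and 0.57 for Thrb and -1.03 and 0.62 for Slco1c1. The change of Dio2 ran from -0.48 in fasted E3 to 0.52 in fasted E1 libraries, with intervals over the 10 comparisons that reach -1.25 and 0.97. Fasted E1 wild types held 13.5, 13.5 and 14.7 scaled CPM of Dio2, and the 4 fasted E1 knockouts ran from 13.3 to 27.3. The highest of these knockouts, KO 4, held raised cortex transcripts (350.4 scaled CPM summed over 6 markers). The interval of the change of Dio2 in fasted E1 was 0.08 to 0.97, with an adjusted p of 0.954. In fed E5 libraries the wild types held 8.01 to 11.7 and the knockouts 9.91 to 14.3, an overlap, and the change was 0.48 (adjusted p 1). Trh in fasted E5 libraries was at 76.7 to 101 in wild types and 48.0 to 79.7 in knockouts, a change of -0.38 (interval -0.68 to -0.07, adjusted p 0.667). In the authors' deposited tables, which cover 8 of the 10 comparisons, the adjusted p of all 56 values of the 7 genes was 1.

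The response to fasting was compared between wild types and knockouts in each line as an interaction. None of the 7 genes was called, where 0% of all genes were called in E1, E2, E4 and E5 and 1.34% in E3. At an unadjusted p under 0.05, 5 of the 35 pairs passed, 2 of them for Hr, beside 5.95% to 20.4% of all genes over the 5 lines. DESeq2 called 0 of the 35 pairs, where its calls over all genes ran from 0 in E1 to 1104 of 15033 in E3. For Hr in E3 the response was larger in knockouts by 0.96 ± 0.36 (SE, interval 0.18 to 1.74, adjusted p 0.159), and in E5 it was smaller by 0.51 on the log2 scale, with an interval of -0.86 to -0.15 (adjusted p 0.797). For Dio2 in E1 the response was larger in knockouts by 0.65 (interval 0.07 to 1.23, adjusted p 0.596). The level of Dio2 was 9.03 ± 2.10 (SD, n = 4) scaled CPM in fed and 13.9 ± 0.678 (SD, n = 3) in fasted E1 wild types, and 8.36 ± 1.14 (SD, n = 4) in fed and 20.1 ± 5.75 (SD, n = 4) in fasted E1 knockouts. The fasted knockouts include KO 4 (27.3), a library with raised cortex transcripts.

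The genes whose deviations from their group means were most like those of each member were sought over the 72 libraries among 12716 genes, as a description of libraries that share tissue and depth. Thrb had the closest match, Ext1, at a Pearson r of 0.91, before Sdccag8 and Nlk at 0.90 and 0.89. Trh was closest to Fxyd6 (0.88), Vat1 and Tmem130, Thra to Fam171a2 (0.85), Epn1 and Scaf1, and Trhde to Gria4, Zfp804b and Mgat4c, all at 0.82. Slco1c1 was closest to Slco1a4, the other organic anion carrier of the pathway list, at 0.78, and next to Flt1, an endothelial receptor gene, at 0.62. Dio2 and Hr had the loosest matches, Dio2 with Tbc1d8b at 0.64, Nes and Arhgef5, and Hr with Spacdr at 0.67, Prodh and Sdc4. The exons of Thra and Hr are rich in G and C, at 57.6% and 61.6%, as are those of Fam171a2 (66.8%) and Spacdr (57.1%), where all genes are at 50.7%, and the share of this likeness that base composition carries was not tested.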

How the data were processed

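RNA of whole hypothalamus was sequenced in 72 libraries. The deposited values are raw counts per Ensembl gene. HISAT2, Bowtie2, edgeR and mm10 are named per the submitters' processing notes, without versions; how reads were counted and their strand are not given in the sources used here. The authors also deposited edgeR tables with log2 fold changes (wild type over knockout) and p-values, quoted only where named. Members and lists were chosen with earlier results of these data known.

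Each comparison was fitted over all genes with edgeR 4.0.16 (R 4.3.3, limma 3.58.1) by its quasi-likelihood test with TMM scaling after filterByExpr (minimum count 10, total 15). P-values were Benjamini-Hochberg adjusted over all genes tested, and a gene was called under 0.05. SE is the log2 change over the root of F, and intervals are 95%. Symbols came from the deposited tables, and positions from GENCODE. All 7 members were named, with the 3 genes most like each, and pathway genes as examples of their roles. 1 pathway gene is not reported here. Alternatives were no filter, DESeq2 1.42.0, base composition trends taken out, a replicate block, 1 genotype or line alone, and each library left out. Leaving out libraries with other tissues was chosen after seeing the data. In simulated data for fed E1 genotypes, 83.5% of genes changed 1.5-fold and 99.0% of those changed 3-fold were recovered. For fasted E3 genotypes these shares were 16.5% and 86.9%. The simulation changed 100 genes of each size at once and drew each gene independently, without tissue differences shared by genes. The real genotype comparisons called 0 genes, so these shares do not give their power to find a change.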

Additional observations from a re-analysis of the deposited data

Results flagged for a closer look

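Among 84 sets of 4 libraries of a member and group, 4 held a library whose gap to its nearest neighbour, as a share of the group's range, passed Dixon's 95% critical value, a level that chance alone passes in about 1 in 20 groups. Trh was at 12.14 scaled CPM in fed E4 wild type 4, the lowest of all 72 libraries. Slco1c1 was at 32.83 in fasted E5 wild type 1, the library with the most choroid plexus RNA (3245 scaled CPM summed over 7 markers), whose part was not tested. Dio2 was at 9.911 in fed E5 knockout 1, and Thrb at 156.5 in fasted E5 wild type 4. The response to fasting differed between E3 and E1 for Slco1c1 (log2 -0.5801) and Trhde (0.5374) by the interaction of line and feeding.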

How the results depend on the processing

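No member that was called changed sign in any alternative run; of 32 called results, 17 were called in every one. The number of members called among E1 and E3 wild types was 1, and it was 3 with base composition trends taken out, 3 with DESeq2, 3 in E1 alone, 2 in E3 alone, 0 without libraries with other tissues, and 1 to 2 with 1 library left out. Over all genes this comparison called 1637, and 2444 with DESeq2, 784 in E1 alone and 2891 in E3 alone. Among knockouts (3) the number of members was 0 in E3 alone, 5 without libraries with other tissues and 2 to 4 with 1 library left out. Over all genes the knockouts gave 3007 calls, and 74 in E3 alone. For the interaction of line and feeding (2) leaving out 1 library gave 1 to 4. Within E1 (5) wild types alone gave 3 and leave-one-out 4 to 5; within E2 (4) wild types alone gave 2, knockouts alone 1 and leave-one-out 3 to 6. Within E3 (0) no filter gave 1, base composition 1, DESeq2 2, wild types alone 2 and leave-one-out 0 to 1. Leave-one-out gave 6 in E4, 5 to 6 in E5, and 4 to 5 for fasted E5 over fed E2. For genotype, DESeq2 gave 1 in fasted E3, and leaving out fasted E2 wild type 3 gave 1 in fasted E2 (Thrb, -0.63). The cause was not tested.

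Whether replicate numbers pair the samples was not settled. Correlations of deviations of same-numbered wild types and knockouts in E3, fed E4 and fed E5 ran from -0.390 to 0.594. Samples with different numbers were not compared. With the replicate block 0 members were called for genotype in each comparison, and no member's call changed. Over all genes, the block gave 1099 calls within E3, against 1704, and 0 for genotype by feeding in E3, against 202 (DESeq2 1104, base composition 0, without libraries with other tissues 1, leave-one-out 0 to 697). DESeq2 called 527 genes for genotype in fasted E3, 107 in fed E3, 104 in fasted E2, 18 in fasted E4, 17 in fasted E5, 4 in fed E4, 2 in fasted E1 and 1 in fed E5, against 0. Genotype in fasted E2 gave 4 calls with all 4 groups in one model, 18 without libraries with other tissues and 0 to 772 with 1 library left out, in fasted E3 605 with all 4 groups, and in fasted E4 169 with no filter, 114 without libraries with other tissues and 0 to 23 with 1 library left out. Genotype by feeding in E2 gave 22 with DESeq2 and 0 to 28 with 1 library left out. Fasting within E3 gave 367 calls without libraries with other tissues, 2891 in wild types alone, 74 in knockouts alone and 785 to 2878 with 1 library left out. Wild types of E1 and E3 gave 1637 calls and 668 to 3217 with 1 library left out, and knockouts of E1 alone 5169, against 3007. Wild types alone gave 784 in E1, against 6003, and 793 in E2, against 3730; knockouts alone gave 214 in E2, 4352 in E4, against 9097, and 6379 in E5, against 11821. Base composition gave 5176 in E4.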
